A study of Mus musculus with 3 samples.

Results

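The calcium pumps of the P-type ATPase family are encoded by 9 genes, 3 for the pumps of the sarcoplasmic and endoplasmic reticulum (SERCA), 4 for those of the plasma membrane (PMCA) and 2 for those of the secretory pathway (SPCA). The members were found by gene symbol, and all 9 were among the 20937 genes in the deposited counts and passed the filter on low counts. The tissue was the enamel organ of the incisor, taken whole at an age of 4 weeks, with 3 libraries in all and 1 library without a replicate for each genotype. In Stim1 cKO, mice carried AmelX-iCre and both Stim1 alleles were floxed (fl/fl). In Stim1 HT, mice carried AmelX-iCre with 1 floxed and 1 wild-type allele. Stim1 Ctrl mice lacked the Cre and were fl/fl. The methods state that only males were used. The Amelx promoter drives the Cre in ameloblasts, so the other layers of the enamel organ keep Stim1.

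Each of these pumps moves calcium out of the cytosol at the cost of ATP. SERCA fills the endoplasmic reticulum, PMCA expels calcium from the cell, and SPCA loads the Golgi with calcium and manganese. In the tooth, ameloblasts carry the calcium that mineralizes enamel, and STIM1 senses depletion of the endoplasmic reticulum store that SERCA refills. SERCA1 is the pump of fast skeletal muscle, SERCA2 is found in nearly all cells and in slow and cardiac muscle, and SERCA3 is known from epithelial, endothelial and blood cells. PMCA1 and PMCA4 are widely expressed, whereas PMCA2 and PMCA3 are best known from neurons. SPCA1 is general to most cells, and SPCA2 is enriched in secretory epithelia.

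The primer pairs that the study lists for quantitative PCR of the 3 SERCA genes are given here, since they mark stretches in which these close paralogs can be told apart. Each pair was found without a mismatch in GENCODE M21 transcripts of its own gene and of no other gene. The Atp2a1 pair matched 1 of 2 transcripts with a product of 159 bases, the Atp2a2 pair 3 of 5 transcripts with a product of 120 bases, and the Atp2a3 pair 5 of 7 transcripts with a product of 143 bases. No base is in capitals because none was mismatched.
Atp2a1 forward: tgtttgtcctatttcggggtg
Atp2a1 reverse: aatccgcacaagcaggtcttc
Atp2a2 forward: gagaacgctcacacaaagacc
Atp2a2 reverse: caattcgttggagccccat
Atp2a3 forward: cgtcgcttctcggtgacag
Atp2a3 reverse: aagaggtcctcaaactgctcc
The longest exact run shared by transcripts of a pair of SERCA genes was 53 bases, between Atp2a1 and Atp2a3, and among the PMCA genes it was 56 bases, between Atp2b2 and Atp2b3. Of all 50-base words in the transcripts of Atp2a1, 0.115% were also in Atp2a3. Reads of the SERCA isoforms can therefore be told from one another over nearly their whole length. For Atp2a2, 3.31% of the words were also in another gene, Gm30970. Overlap with genes on the opposite strand was larger, with 763 exon bases of Atp2a1 (21.9%) shared with Rabep2 and 1837 exon bases of Atp2c1 (18.9%) shared with Aste1. Whether counting used strand is not given in the sources used here. Rabep2 had 619, 431 and 561 counts in Stim1 cKO, Stim1 HT and Stim1 Ctrl, and Aste1 had 216, 114 and 183.

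The deposited counts summed to between 20216507 and 28265960 per library. Where 3 values stand together, they are those of Stim1 cKO, then Stim1 HT, then Stim1 Ctrl, and 2 values of the controls follow the same order. Levels are given as CPM, which are counts relative to the TMM-scaled library size, and as CPM per kb of exon where different genes are compared. Stim1, the targeted gene, had 1763, 2536 and 4797 counts. In CPM this was 72.8, 129 and 186. The log2 fold change of Stim1 cKO against the grouped controls was -1.11 (adjusted p = 0.106 in edgeR's quasi-likelihood test). Stim2 and Orai1, which were not targeted, had the same order of libraries in CPM, and Orai2 and Orai3 did not. With 1 library per genotype, a link of the Stim1 order to the number of intact alleles was not tested. The secretory ameloblast genes Amelx, Ambn, Enam and Mmp20 summed to 3584 CPM in Stim1 cKO and to 31173 and 23113 CPM in the controls, and DESeq2 called all but Mmp20 lower, while edgeR called 0. For the maturation genes Klk4, Amtn, Odam and Slc24a4 the sums were 895, 379 and 166 CPM, with Odam called higher by DESeq2. The part of these differences in the pump levels was not tested. Genes of connective tissue and bone, skeletal muscle, nerve and gland were detected as well. The 5 mesenchyme and bone markers had the largest sum of the marker lists, at 25130, 31863 and 51034 CPM. DESeq2 called Vim and Col3a1 among them lower, and edgeR called 0. The part of connective tissue RNA in the pump levels was not tested. The summed level of 7 fast muscle markers was 3432 CPM in Stim1 cKO against 9884 and 10656 CPM in Stim1 HT and Stim1 Ctrl. That of 5 photoreceptor genes was 930 CPM in Stim1 cKO against 1.68 and 1.20 CPM. In such bulk RNA, fewer cells of a type and less RNA per cell cannot be told apart.

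Among the pumps, Stim1 cKO had higher levels of Atp2a3, Atp2b1, Atp2b2 and Atp2c2 than both controls, and less Atp2a1. Atp2a2, Atp2b4 and Atp2c1, the general isoforms of their classes other than Atp2b1, differed by less than 1.5-fold from both controls. With the thresholds of the study, an adjusted p under 0.01 and a fold change over 2, edgeR's quasi-likelihood test called 0 of the 9 genes higher and 0 lower, where it called 0.0749% of the 18702 genes tested higher and 0.0% lower. Without adjustment, 4 of the genes had p under 0.05, all with higher levels, against a background of 18.5% of genes higher and 13.4% lower. Leaving out the filter on low counts, edgeR called 2 higher and 0 lower (3.28% and 1.05% of all genes), and with the threshold on the adjusted p at 0.05 it called 3 and 0 (6.8% and 2.88%). DESeq2, the test named by the study, called the same 4 genes, Atp2a3, Atp2b1, Atp2b2 and Atp2c2, as higher and 0 as lower, where it called 6.42% of 17251 genes higher and 5.1% lower. As single libraries, these 4 genes were also more than 2-fold higher in Stim1 cKO than in each control, which held for 19.1% of all genes tested, and for 14.3% when a mean count of 50 or more was required. No pump gene was more than 2-fold lower than each control, against 8.23% and 8.36% of genes. Without a minimum fold, 5 pump genes lay above both controls (43.6% of genes) and 2, Atp2a1 and Atp2b3, below both (42.1%). The median log2 fold change of the 9 genes was 0.35, and that of all genes tested was -0.01. The spread in these tests comes from the 2 controls alone, whose genotypes differ, so no call has a replicate check.

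**Figure D1:**
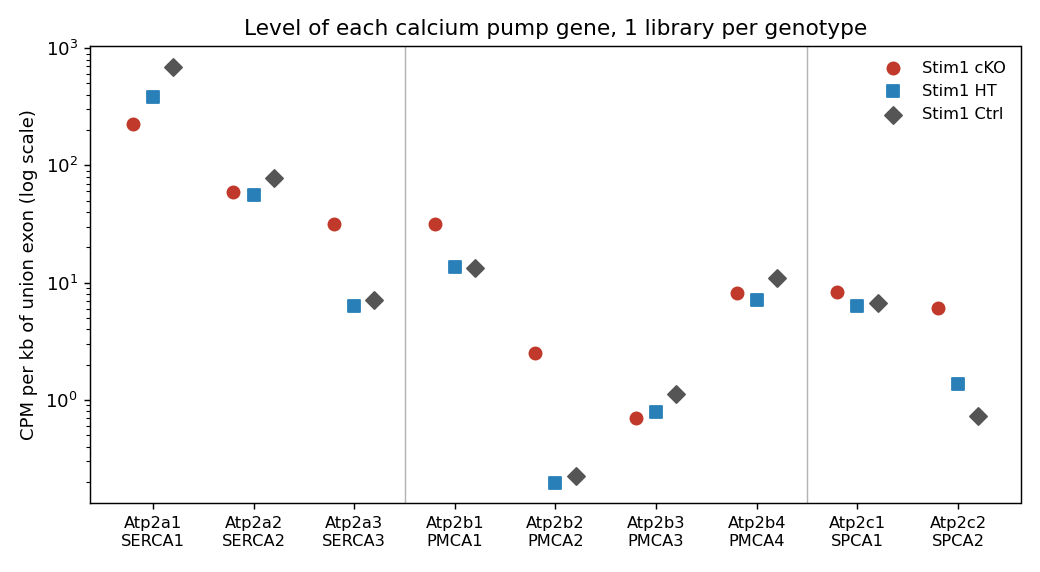
Level of each pump gene in CPM per kb of union exon on a log axis, with 1 point per library (Stim1 cKO, Stim1 HT, Stim1 Ctrl) and no error bars, since each genotype had 1 library. Atp2a1 lies highest in each library, and Stim1 cKO lies above both controls in Atp2a3, Atp2b1, Atp2b2, Atp2c1 and Atp2c2.

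Atp2a1 (SERCA1) was the most abundant pump transcript in all 3 libraries. It lies on chromosome 7 from 126445858 to 126463108 (GENCODE M21, GRCm38). It had 18862, 26030 and 62129 counts, which is a level of 224, 380 and 694 CPM per kb. The 3 libraries were thus well separated, and Stim1 HT lay between the others. The level was 1.70-fold lower in Stim1 cKO than in Stim1 HT and 3.10-fold lower than in Stim1 Ctrl. Stim1 HT was itself 1.83-fold lower than Stim1 Ctrl. The log2 fold change against the grouped controls was -1.26 (edgeR adjusted p = 0.172, and 0.0195 to 0.250 over the alternatives, the lowest with DESeq2), which did not pass the threshold.

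Several genes that work beside SERCA1 in the muscle store lay lower in Stim1 cKO by more than Atp2a1 did. Sln encodes sarcolipin, a small membrane inhibitor of SERCA1, and was at 15.7 CPM against 207 and 205 CPM. Mrln encodes myoregulin, an inhibitor of the same type, and was at 4.05 CPM against 27.1 and 18.1 CPM. Both were called lower by DESeq2 (adjusted p = 2.13e-28 and 6.95e-05). In edgeR their log2 fold changes were -3.71 and -2.48, and the adjusted p of 0.0146 and 0.0361 missed the threshold. Pln, which encodes phospholamban, the inhibitor in slow and cardiac muscle, was near 1 CPM in each library. Of the 6 SERCA regulators in the list, 4 were tested and 2 were called lower by DESeq2. The remaining tested gene, Arln (1810037I17Rik), was at 72.0, 68.6 and 38.7 CPM and was called by neither test.

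Of 8 calcium-binding proteins of the reticulum, DESeq2 called 6 lower and 0 higher, while edgeR called 0. They comprised Casq1 and Casq2, the calsequestrins of fast and of slow and cardiac muscle, Hrc, a histidine-rich protein of the same store, and the more widely expressed Calu, Rcn1 and Rcn3. Casq1 was at 73.8, 513 and 653 CPM. Calr, which encodes the general store protein calreticulin, was at 532, 804 and 785 CPM, a log2 fold change of -0.58 that passed in neither test. Ryr1, the release channel of skeletal muscle, was at 178, 260 and 419 CPM, which resembled the order of Atp2a1.

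The fast muscle markers moved unevenly beside Atp2a1. Actn3, an actin-binding protein of fast fibres, was at 21.6 CPM in Stim1 cKO and at 289 and 319 CPM in the controls. The creatine kinase gene Ckm was at 460, 2060 and 2542 CPM. Myh1 and Myh4 encode fast myosin heavy chains and did not share this pattern. Myh1 was at 1000, 1002 and 1882 CPM, and Myh4 was at 473, 318 and 29.1 CPM. DESeq2 called 4 of the 7 fast markers and 5 of 5 slow and cardiac markers lower. Relative to the summed fast markers, Atp2a1 amounted to 22.7%, 13.4% and 22.7%. The part of muscle RNA in the level of Atp2a1 was not tested.

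**Figure D2:**
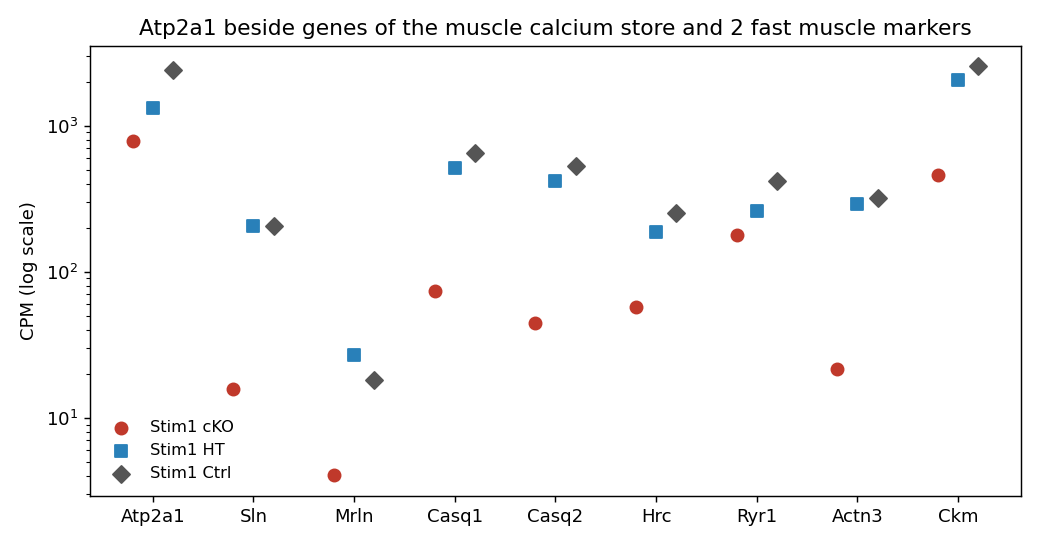
CPM on a log axis for Atp2a1, for genes of the muscle calcium store and for the fast muscle genes Actn3 and Ckm, with 1 point per library. The gap between Stim1 cKO and the controls is wider for Sln, Casq1, Casq2 and Actn3 than for Atp2a1 and Ryr1.

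Atp2a2 (SERCA2), on chromosome 5 from 122453513 to 122502225, had 8661, 6737 and 12144 counts. In CPM per kb this was 58.8, 56.2 and 77.6, so Stim1 cKO lay between the controls. Against the grouped controls, its log2 fold change was -0.19 (edgeR adjusted p = 0.745), and its sign depended on the scaling, being 0.08 with library sizes alone, a scaling that moved the median of all genes to 0.25. The slow and cardiac muscle markers, which share the tissue of one SERCA2 form, were at 17.5 CPM in sum in Stim1 cKO and at 349 and 391 CPM in the controls.

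Atp2a3 (SERCA3), on chromosome 11 from 72961169 to 72993044, had 4054, 659 and 975 counts. Its level was 31.7 CPM per kb in Stim1 cKO and 6.33 and 7.17 CPM per kb in the controls. The controls lay close together and Stim1 cKO far above them. The ratio was 5.01 to Stim1 HT (95% interval 4.61 to 5.44, counting error only) and 4.42 to Stim1 Ctrl (4.12 to 4.75). In the fit over all genes its log2 fold change was 2.23 (edgeR adjusted p = 0.0179), and DESeq2 gave an adjusted p of 5.69e-09, with a range of 5.69e-09 to 0.0228 over the alternatives. Markers of cell types in which SERCA3 is known did not all follow it. The summed endothelial markers were at 141 CPM in Stim1 cKO against 359 and 378 CPM, and the platelet markers Pf4 and Itga2b at 19.5 CPM in sum against 43.1 and 44.1 CPM, a gap that came from Pf4, since Itga2b had a log2 fold change of -0.14. Summed leukocyte markers were at 45.7, 33.7 and 23.6 CPM, and those of dental epithelium at 2809, 1728 and 1614 CPM. DESeq2 called Krt14 higher among the latter and none of the 5 leukocyte genes.

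The 200 bases before the annotated starts of Atp2a1 and Atp2a3 are shown because these SERCA genes lay on opposite sides of the controls. The sequences are from RefSeq (GRCm38.p6), which had an entry for 6 of the 9 genes. Capitals mark matches on either strand to the GC box GGGCGG, the E-box CANNTG or the TATA box TATAAA, and neighbouring matches of the GC box can overlap.
Atp2a1, chr7:126463109-126463308, minus strand: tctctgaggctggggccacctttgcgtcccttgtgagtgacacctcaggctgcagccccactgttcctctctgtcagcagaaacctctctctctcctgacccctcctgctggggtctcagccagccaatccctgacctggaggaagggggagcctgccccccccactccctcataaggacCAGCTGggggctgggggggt
Atp2a3, chr11:72960969-72961168, plus strand: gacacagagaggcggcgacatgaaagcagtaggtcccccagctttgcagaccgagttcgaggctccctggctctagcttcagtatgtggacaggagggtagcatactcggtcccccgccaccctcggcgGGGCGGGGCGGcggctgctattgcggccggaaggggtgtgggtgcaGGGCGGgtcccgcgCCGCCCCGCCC
The window of Atp2a1 held 1 E-box, 1 CpG and no GC box, whereas that of Atp2a3 held 5 GC boxes, 18 CpGs and no E-box. GC content was alike, at 64.5% and 69.5%. Over windows of the same length before 32851 RefSeq starts, the median was 5 CpGs, and 31.0% held a GC box, 58.2% an E-box and 9.96% the TATA box. These matches describe the letters only.

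**Figure D3:**
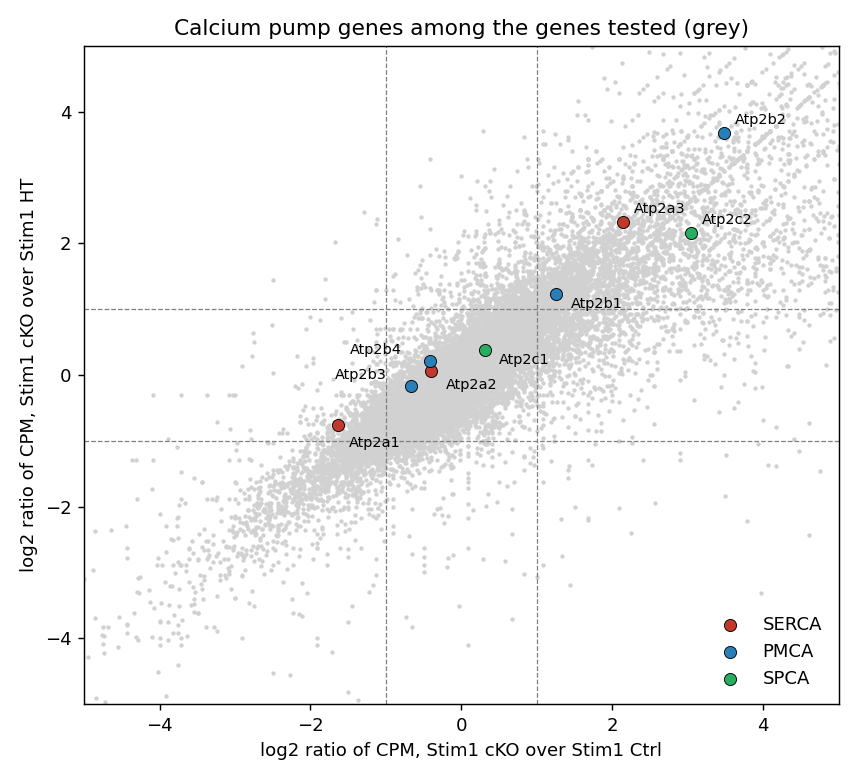
Log2 ratio of CPM of Stim1 cKO over Stim1 Ctrl (x axis) and over Stim1 HT (y axis), for the 9 pump genes in colour by class and for all genes tested in grey. Dashed lines mark a 2-fold difference, and genes beyond the axis range are not drawn. Atp2b2, Atp2a3, Atp2c2 and Atp2b1 lie past 2-fold on both axes, and Atp2a1 on the x axis alone. Both axes share the Stim1 cKO library.

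Within SERCA, the shares of the isoforms shifted away from Atp2a1 in Stim1 cKO. Per kb of exon, Atp2a1 made up 71.2% of SERCA in Stim1 cKO against 85.9% and 89.1%. Atp2a2 accounted for 18.7%, 12.7% and 9.96%, and Atp2a3 for 10.1%, 1.43% and 0.92%. Counting intervals were narrow, 9.78% to 10.4% for Atp2a3 in Stim1 cKO, and cover neither animals nor libraries. Atp2a1, the pump of fast muscle, was then left out, a choice made after the data were seen. Atp2a3 was 35.0% of the remainder in Stim1 cKO and 10.1% and 8.46% in the controls. The remainder still holds Atp2a2, which is also found in slow and cardiac muscle. The part of muscle RNA in this share was not tested. The summed SERCA level was 315, 443 and 779 CPM per kb. Without Atp2a1 it was 90.6, 62.6 and 84.8 CPM per kb, with both Stim1 cKO and Stim1 Ctrl above Stim1 HT.

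Atp2b1 (PMCA1), on chromosome 10 from 98914406 to 99026143, was the leading plasma membrane pump in each library. It had 11699, 4047 and 5204 counts. This equals 31.8, 13.5 and 13.3 CPM per kb, so the controls were nearly alike. Stim1 cKO was 2.35-fold above Stim1 HT (95% interval 2.27 to 2.44, counting error only) and 2.39-fold above Stim1 Ctrl (2.31 to 2.47). Its fitted log2 fold change was 1.25 (edgeR adjusted p = 0.0590), and the adjusted p was 0.000498 with DESeq2 and up to 0.0621 over the alternatives.

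Atp2b2 (PMCA2), on chromosome 6 from 113743831 to 114042613, differed most of the 9 genes. It had 767, 49 and 73 counts, and its level was 2.51, 0.197 and 0.225 CPM per kb. It was scarce in both controls and remained below Atp2b1 and Atp2b4 in Stim1 cKO. The ratio was 12.7 to Stim1 HT (95% interval 9.54 to 17.4, counting error only) and 11.2 to Stim1 Ctrl (8.78 to 14.4). The log2 fold change was 3.57 (edgeR adjusted p = 0.0154), and with DESeq2 the adjusted p was 3.25e-09, the alternatives reaching up to 0.0230.

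Like Atp2b2, most neural markers in the lists peaked in the Stim1 cKO library. So did many other genes, with 19.1% of those tested more than 2-fold above each control. DESeq2 called 6 of 7 neuron genes and 5 of 5 photoreceptor genes higher in Stim1 cKO, and edgeR called 0 and 3. The neuron markers summed to 969, 240 and 163 CPM. Rbfox3, which encodes a nuclear protein of mature neurons, was at 78.8 CPM against 3.00 and 3.69 CPM, whereas the neurofilament gene Nefl had a log2 fold change of 0.19 and was not called. The part of neural RNA in the levels of Atp2b2 and of the other pumps was not tested.

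Atp2b3 (PMCA3) lies on the X chromosome from 73503086 to 73571005 and was the least abundant pump in Stim1 cKO. It had 82, 75 and 139 counts, or 0.703, 0.790 and 1.12 CPM per kb. It is also best known from neurons, but its level in Stim1 cKO was not above the controls. Against the grouped controls, its log2 fold change was -0.44 (edgeR adjusted p = 0.605), and the ratio to Stim1 HT was 0.890 with a counting interval of 0.643 to 1.23, so a difference from that library was not detectable at this depth. The ratio to Stim1 Ctrl was 0.627, with a counting interval of 0.471 to 0.830 that lies below 1.

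Atp2b4 (PMCA4), on chromosome 1 from 133699457 to 133801041, had 2424, 1706 and 3445 counts. At 8.18, 7.07 and 10.9 CPM per kb, Stim1 cKO again lay between the controls, as for Atp2a2. Its log2 fold change was -0.14 (edgeR adjusted p = 0.808), and with library sizes alone it turned to 0.13, below the shift of all genes under that scaling.

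Atp2b1 therefore held 73.6% of PMCA per kb in Stim1 cKO against 62.6% and 52.0%. Atp2b4 held 18.9%, 32.8% and 42.8%, and for both isoforms Stim1 HT lay between the other libraries. The share of Atp2b2 was 5.82%, 0.915% and 0.880%, with the controls inside each other's counting intervals. That of Atp2b3 was 1.63%, 3.66% and 4.38%. With the longest transcript as the length, Atp2b1 held 84.1%, 77.2% and 68.7%, Atp2b4 10.6%, 19.8% and 27.7% and Atp2b3 0.906%, 2.20% and 2.82%, in the same order of libraries. The summed PMCA level was 43.1 CPM per kb in Stim1 cKO against 21.6 and 25.6 in the controls. Set against PMCA, summed SERCA was 7.29-fold higher in Stim1 cKO against 20.5-fold and 30.5-fold in the controls. Without Atp2a1 the corresponding ratios were 2.10, 2.90 and 3.32. All of these ratios were smaller when the longest transcript was used as the length, at 4.01, 12.00 and 19.0 with Atp2a1 and 1.23, 1.81 and 2.21 without it, in the same order of libraries.

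**Figure D4:**
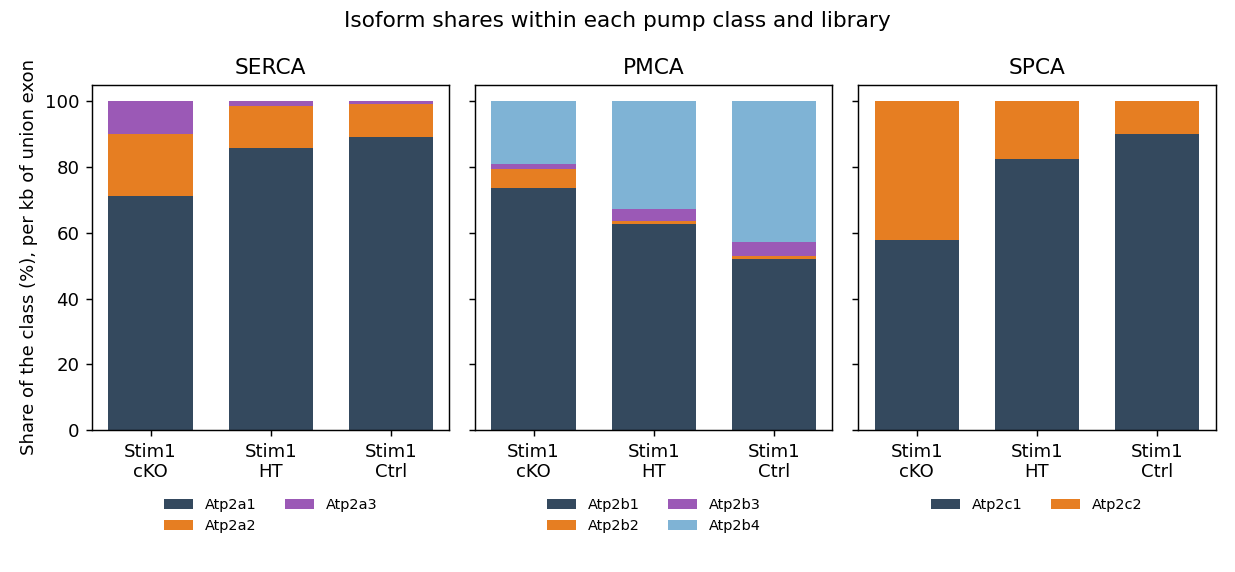
Share of each isoform in its pump class, in percent of the summed CPM per kb of union exon, in stacked bars of 1 library each. In Stim1 cKO, Atp2a1 takes 71.2% of SERCA, Atp2b1 73.6% of PMCA and Atp2c2 42.2% of SPCA.

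PMCA pairs with basigin or neuroplastin, its accessory subunits, which are encoded by Bsg and Nptn. Nptn was level at 170, 173 and 168 CPM, and Bsg was at 350, 511 and 406 CPM. Neither subunit gene was called by edgeR or DESeq2.

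Atp2c1 (SPCA1), on chromosome 9 from 105403539 to 105527319, had 1958, 1220 and 1679 counts. These correspond to 8.34, 6.39 and 6.73 CPM per kb. Stim1 cKO lay a little above both controls, which differed less from each other. In the fit over all genes its log2 fold change was 0.35 (edgeR adjusted p = 0.367, and 0.143 to 0.575 over the alternatives).

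Atp2c2 (SPCA2), on chromosome 8 from 119700009 to 119757717, had 475, 87 and 61 counts. Its level was 6.09, 1.37 and 0.736 CPM per kb, with Stim1 HT 1.86-fold above Stim1 Ctrl. Stim1 cKO stood 4.44-fold above Stim1 HT (95% interval 3.53 to 5.65, counting error only) and 8.28-fold above Stim1 Ctrl (6.33 to 10.99). Its fitted log2 fold change was 2.53 (edgeR adjusted p = 0.0452), and the adjusted p was 0.00194 with DESeq2 and up to 0.0525 over the alternatives. Exocrine gland markers summed to 1224, 480 and 80.7 CPM, the order of Atp2c2, but Obp2a, an odorant-binding protein gene, carried the sum. With Obp2a left out, a choice made after its values were seen, the other 6 genes summed to 285, 478 and 80.6 CPM, and Stim1 HT was highest. Within that list, DESeq2 called 3 of 7 genes higher, Obp2a, Aqp5 and Scgb2b27, and 1 lower, Lpo. Aqp5 was at 77.3, 18.4 and 8.63 CPM, the order of Atp2c2, and Scgb2b27 at 96.2, 1.32 and 3.54 CPM. Lpo, the lactoperoxidase of saliva and milk, was at 0.909, 8.07 and 35.5 CPM, the reverse order. The part of gland RNA in the level of Atp2c2 was not tested.

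The share of Atp2c2 in SPCA was 42.2%, 17.7% and 9.85% per kb of union exon. The size of the share depends on the length taken for Atp2c1, and with the longest transcript it was 29.8%, 11.1% and 5.98%, in the same order. The summed SPCA level was 14.4 CPM per kb in Stim1 cKO and 7.76 and 7.47 in the controls. Of the Golgi proteins that handle the same ions, Sdf4 (Cab45), Nucb1 and Tmem165, none was called by either test. Sdf4 was at 144, 265 and 216 CPM, and the other two also had their lowest level in Stim1 cKO.

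The 2 controls were within 2-fold of each other in all 9 pump genes, and 13.5% of the genes tested differed by more. With only 9 genes, a count of 0 is not far from that share and is not read as a trait of the pumps. The log2 ratios of Stim1 HT over Stim1 Ctrl ran from -0.87 in Atp2a1 to 0.90 in Atp2c2. At a 1.5-fold minimum, 3 genes passed, which were Atp2a1, Atp2b4 and Atp2c2. The share of all genes at that minimum was not computed, so this count has no background to be read against. Of the 4 genes that DESeq2 called, the controls were at most 1.14-fold apart in Atp2a3, Atp2b1 and Atp2b2, and 1.86-fold apart in Atp2c2. The spread of that test comes from these same controls, so their closeness is no separate support for a call. Ordered by CPM per kb of union exon, Atp2a1, Atp2a2 and Atp2b1 held ranks 1 to 3 in each library. Atp2a3 and Atp2b1 were level in Stim1 cKO, at 31.7 and 31.8 CPM per kb, and Atp2c1 and Atp2b4 were nearly so at 8.34 and 8.18. Atp2a3 stood at rank 4, 6 and 5 in the 3 libraries. Part of this order rests on the length rule, since the union of the Atp2b1 exons is 15218 bases and its longest transcript 7130 bases. With the longest transcript, Stim1 cKO had 67.8 CPM per kb of Atp2b1, 63.1 of Atp2a2, 36.4 of Atp2a3, 14.3 of Atp2c1 and 8.54 of Atp2b4, so that Atp2b1 lay above Atp2a2 there and the pairs above were no longer level.

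Other routes for calcium across membranes were mixed. Of 9 sodium-calcium exchangers, DESeq2 called 2 higher, Slc24a1 and Slc24a2, which are known from photoreceptors and neurons, and edgeR called 0. Slc24a4, the exchanger of maturation ameloblasts, was at 22.1 CPM against 7.56 and 5.98 CPM, with a DESeq2 adjusted p of 0.0136 that missed the threshold. Of 6 release channels it called Ryr2 higher and Ryr3 lower. Itpr2, an inositol trisphosphate receptor, was at 84.2 CPM against 38.6 CPM in each control, with a DESeq2 adjusted p of 0.0128 that missed the threshold. Among the 5 genes of store-operated entry, Stim1 included, 0 were called by either test.

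**Figure D5:**
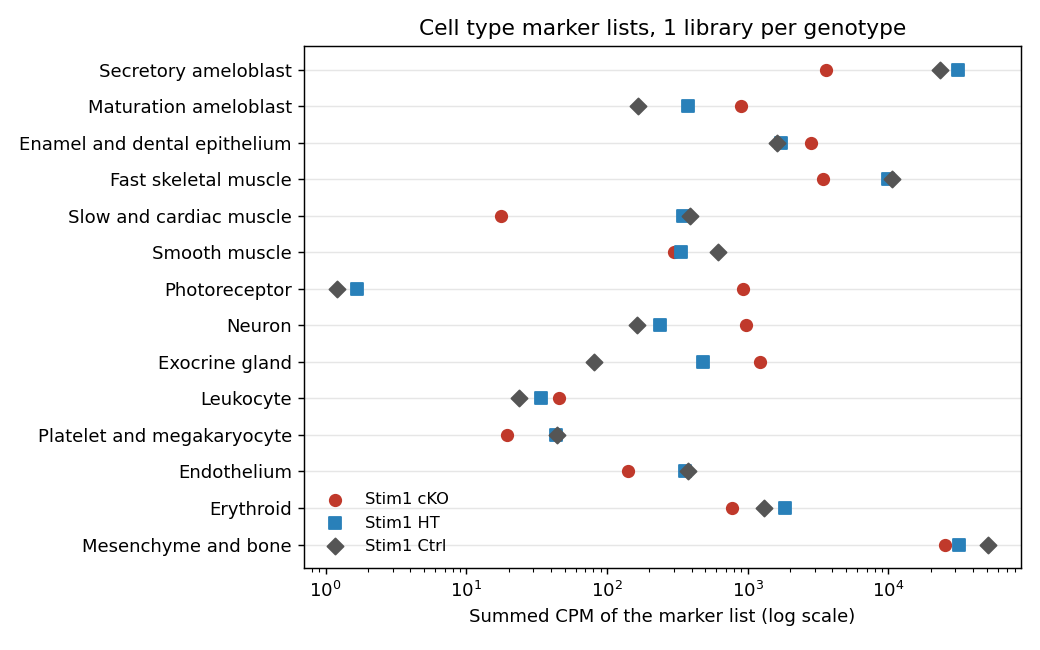
Summed CPM of each cell type marker list on a log axis, with 1 point per library. Fast muscle markers run from 3432 CPM in Stim1 cKO to 10656 CPM in Stim1 Ctrl, and neuron, photoreceptor and exocrine gland markers are highest in Stim1 cKO.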

How the data were processed

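RNA of the incisor enamel organ was sequenced as paired-end reads in 3 libraries, 1 per genotype. Poly-A RNA was enriched. The methods name a NEBNext directional kit and the labels a SMARTER kit. The authors aligned reads with STAR and deposited raw counts per gene symbol for 20937 genes, without normalization. The genome build, annotation, counting tool and strand setting are not given in the sources used here. Date-like symbols stood in 25 rows, which stayed in the fit.

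Stim1 cKO was compared with Stim1 HT and Stim1 Ctrl as 1 control group, as in the study, with edgeR 4.0.16 (R 4.3.3): TMM factors, filterByExpr (18702 genes), quasi-likelihood test and Benjamini-Hochberg adjustment over all genes tested. Residual degrees of freedom were 1. DESeq2 1.42.0, other scalings and filters, and leaving out a control were alternatives. A DESeq2 adjusted p of NA stayed NA. The script was tested on simulated data. Levels per kb used the union of GENCODE M21 exons. Intervals are at 95% and cover counting error only. Ratios between libraries have no test. Genes named are the 9 pumps and the genes of the pathway and marker lists, which were chosen with earlier results of these data known. Nearest genes had the smallest Euclidean distance in centred log2(CPM + 1). Some genes of the lists are not reported here.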

Additional observations from a re-analysis of the deposited data

How the results depend on the processing

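Calcium pump genes called higher in Stim1 cKO numbered 0 in edgeR's quasi-likelihood test, 4 with DESeq2, 2 without the low-count filter and 3 at an adjusted p under 0.05, and the count stayed at 0 with the other scalings, the filter at a mean of 50 counts and the gene removals tried. Leaving out a control left no residual degrees of freedom, so those fits gave fold changes and no calls. Of 90 alternative log2 fold changes, 86 kept their direction. The exceptions were Atp2a2, at 0.079 with library sizes only and -0.41 to 0.065 with 1 control left out, and Atp2b4, at 0.13 and -0.43 to 0.21, both turning positive without Stim1 Ctrl. At a 1.5-fold minimum, 1 gene (Atp2a1) was lower than both controls and 3 differed between Stim1 HT and Stim1 Ctrl. The shares of all genes at that minimum were not computed. Leaving out Stim1 HT left 1 gene, Atp2a1, over 2-fold lower, and leaving out Stim1 Ctrl left 0. The share of all genes over 2-fold lower than a single control was not computed either, so these counts have no background. Relative to the mean share in the controls, the share in Stim1 cKO differed by 7.37 percentage points for Atp2a2 (9.28 from raw counts, 5.99 to 8.74 with 1 control left out), 8.90 for Atp2a3 (11.2 from raw counts, 9.90 with the longest transcript, 25.7 without Atp2a1), 16.3 for Atp2b1 (14.3 and 11.1 by these length rules, 10.98 to 21.6 with 1 control left out) and -28.4 for Atp2c1 (-14.4 and -21.3, and -32.3 to -24.5). The summed level of Stim1 cKO over the mean of both controls was 0.515 for SERCA (0.525 with the longest transcript, 0.621 with library sizes only, 0.565 from CPM without length, 0.404 to 0.711 with 1 control left out), 1.83 for PMCA (2.05, 2.20 and 1.92, and 1.69 to 2.001) and 1.90 for SPCA (1.66, 2.26 and 1.5005). Without Atp2a1, a choice made after the data were seen, the SERCA ratio turned to 1.23. No other direction of these shares and sums changed. The cause of these shifts was not tested, except that length rules and fewer libraries act by construction. No paired analysis was possible because each genotype has 1 library.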

Other observations

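The genes whose levels over the 3 libraries were most like those of a rising pump were picked by the smallest distance among the 14977 genes whose mean count was 50 or more. For Atp2a3 they were Sez6l, Ptprt and Zbtb20, and Zbtb20 was at 612 CPM in Stim1 cKO against 120 and 137 CPM in the controls, Stim1 HT first. For Atp2b1 they were Ephx1, Wdr70 and Cldn10, with Cldn10 at 28.3 CPM against 11.4 and 11.1 CPM. For Atp2b2 they were Gm37529, Kantr and Grm3. Grm3, a glutamate receptor of the nervous system, was at 10.6 CPM against 0.203 and 0.272 CPM. Atp2b2 itself was at 31.7 CPM against 2.49 and 2.84 CPM, a smaller ratio. The distance adds 1 CPM before the log, so at such low levels it does not mean likeness in ratio. For Atp2c2 they were Hydin, Pcp4l1 and St8sia3, and Hydin, a gene of motile cilia, was at 16.5 CPM against 3.55 and 1.83 CPM. With 3 libraries such likeness is a description, and 70 genes lay within a distance of 0.1 of Atp2b1, against 14 for Atp2a3, 13 for Atp2c2 and 7 for Atp2b2.

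Atp7b, a copper pump of the same family, also lay higher in Stim1 cKO, at 10.8 CPM against 4.06 and 1.98 CPM, but was called by neither DESeq2 (adjusted p = 0.0946) nor edgeR (0.108).

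The primer pairs listed by the study for PMCA1 and PMCA4 matched no GENCODE M21 transcript without a mismatch. Against the closest stretch of an Atp2b1 transcript, the PMCA1 primers had 3 (forward) and 2 (reverse) mismatches. Against Atp2b4, the PMCA4 primers had 1 and 2, and the forward primer was as close to an Atp2b2 transcript, with 1 mismatch. These sequences were not used for any level above.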
